A study of Homo sapiens with 18 samples.

Results

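The thrombospondins THBS1, THBS2 and THBS3 were followed through an array study of SKOV-3 cells, an established human ovarian carcinoma line, by all probe sets annotated to them. A probe set is a group of short probes on the array that together report 1 transcript region. The 3 genes were chosen from measured values of these same arrays, in which probe sets of 1 gene gave different answers, so their fold changes and calls are given as a description without a test. They are 3 of the 19775 genes that had a probe set of their own, and hold 9 of the 54675 probe sets. THBS1 had 7 probe sets, and THBS2 and THBS3 had 1 each, so that disagreement between probe sets could concern THBS1 alone. None of the 9 listed a second gene symbol.

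Expression was measured on Affymetrix U133 Plus 2.0 arrays, with 3 independent replicates in each of 6 groups, 18 arrays in all. LHR+ cells were transfected to express the luteinizing hormone (LH) receptor and received no LH. LH1, LH4, LH8 and LH20 cells carried the same transfected receptor and were kept with 50 ng/ml LH for 1 h, 4 h, 8 h or 20 h before harvest. LHR- cells lacked the receptor and received no LH, and are given as the parent SKOV-3 line in the series description but as mock-transfected cells in the study's legends. All 6 groups are 1 cell line in culture, and the sources used here do not say how many transfected clones stood behind the LHR+ cells.

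Thrombospondins are secreted, calcium-binding glycoproteins of the extracellular matrix. THBS1 and THBS2 form trimers that carry type 1 repeats, restrain the growth of blood vessels through CD36 and bind CD47, and THBS1 can release TGF-beta from its latent complex. THBS3, like THBS4 and COMP, forms pentamers and lacks the type 1 repeats. THBS1 is also known as a gene that responds rapidly to serum and growth factors.

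The 3 genes had different time courses in the same cells, and the windows around their start sites are therefore shown side by side. Each RefSeq window (GRCh38.p14) runs from 250 bases before to 50 bases after an annotated start, 5′ to 3′ on the gene's strand, and capitals mark motif matches on either strand. The GC box was searched as GGGCGG. The site of TEAD factors was searched as GGAATG. The TATA box, known from many start sites, was searched as TATAAA. The core of the cAMP response element (CRE) was searched as TGACG, the AP-1 site as TGANTCA and the CArG box of serum response factor by its usual consensus. The THBS1 window is chr15:39580829-39581128 on the plus strand, the THBS2 window chr6:169253797-169254096 on the minus strand, and the THBS3 window chr1:155209129-155209428 on the minus strand.
THBS1: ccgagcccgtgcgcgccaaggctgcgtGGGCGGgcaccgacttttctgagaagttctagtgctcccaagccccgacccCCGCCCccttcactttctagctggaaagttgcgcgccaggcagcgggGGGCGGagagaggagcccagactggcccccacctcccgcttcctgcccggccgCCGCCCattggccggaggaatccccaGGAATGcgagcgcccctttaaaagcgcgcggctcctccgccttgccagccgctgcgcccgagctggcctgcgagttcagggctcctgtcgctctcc
THBS2: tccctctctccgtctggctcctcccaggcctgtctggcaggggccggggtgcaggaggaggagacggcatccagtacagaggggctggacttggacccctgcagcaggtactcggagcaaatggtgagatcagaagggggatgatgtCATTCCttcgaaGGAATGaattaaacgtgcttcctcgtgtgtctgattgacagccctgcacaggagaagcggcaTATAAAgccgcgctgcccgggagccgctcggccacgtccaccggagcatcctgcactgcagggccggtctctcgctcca
THBS3: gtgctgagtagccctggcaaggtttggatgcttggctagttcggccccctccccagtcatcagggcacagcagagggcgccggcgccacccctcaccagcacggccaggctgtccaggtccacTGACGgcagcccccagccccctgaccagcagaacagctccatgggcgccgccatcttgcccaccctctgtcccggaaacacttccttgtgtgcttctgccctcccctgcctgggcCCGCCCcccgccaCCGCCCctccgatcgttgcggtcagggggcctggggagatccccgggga
The THBS1 window held 4 GC boxes and 1 TEAD match. The THBS2 window held a TATA box and 2 TEAD matches, with no GC box. The THBS3 window held 2 GC boxes and 1 CRE core, and a second annotated THBS3 start, in chr1:155207848-155208147, had 1 GC box. No window of the 3 genes held an AP-1 or CArG match. Among all 35116 windows of this length, 44.95% held a GC box, 24.55% a CRE core, 14.03% a TEAD match, 11.5% a TATA box, 7.71% an AP-1 match and 1.29% a CArG box, and a match of letters is only a description.

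Values are probe set intensities on a linear scale as deposited, and fold changes are differences of log2(intensity + 1), written LH1/LHR+ for LH1 over LHR+. Single arrays had medians of 46.9 to 57.9 intensity units, and all 9 thrombospondin probe sets were brighter on average than the median probe set. A probe set is said to meet the call rule when limma gave p under 0.05 and an adjusted p under 0.1, the fold was at least 2, and the triplicates of the 2 groups did not overlap. The array gave no check of the transfection, since the 1 probe set of LHCGR, the LH receptor gene, read between 0.196 and 4.11 on all 18 arrays. Of 10 markers of ovarian carcinoma epithelium, 9 lay above the median intensity in each group, WT1 being the one below it in LH20 cells and CDH1 in the other groups. Markers of endothelium (5 genes) and leukocytes (3 genes) had none above it. Summed fibroblast markers (7 genes) read 12441 to 13552 in LHR+ cells, against 22209 to 22954 in LHR- cells. COL1A1 carried most of the sum in both groups (12626 in LHR+ and 16907 in LHR- cells), and LUM added to it in LHR- cells (5117, against 21.0 in LHR+ cells). DCN and COL3A1 also had lower means in LHR+ cells, and PDGFRA, PDGFRB and THY1 had higher ones. In cultured cells a smaller share of a cell type cannot be told apart from less RNA per cell.

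In THBS1, 3 probe sets were highest after 1 h of LH. Probe set 239336_at read 173, 100.4 and 199.7 in LHR+ cells, 624, 477 and 708 in LH1 cells, and 200.3, 269 and 265 in LH4 cells. It then read 99.6, 125 and 154 in LH8 cells and 75.2, 82.6 and 69.5 in LH20 cells, beside 95.1, 87.5 and 114 in LHR- cells. All LH1 arrays stood above every other array, and all LH20 arrays stood below every other array. Its log2 fold change was 1.97 (SE 0.25) for LH1/LHR+, 0.68 for LH4/LHR+, -0.28 for LH8/LHR+ and -0.99 for LH20/LHR+, with the call rule met at LH1 alone among these. With the fit limited to the 6 arrays of LH1 and LHR+ the LH1 call was lost. The LH20 value, just short of the 2-fold limit, met the rule without LH20 replicate 2 (-1.06) or LHR+ replicate 2 (-1.29), with equal array medians (-1.01) and after quantile normalization.

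Probe set 215775_at followed the same course from a lower level. It read 191, 102 and 125 in LHR+ cells, 591, 469 and 511 in LH1 cells, 114, 235 and 206 in LH4 cells, 95.1, 62.0 and 106 in LH8 cells, and 76.4, 39.0 and 44.8 in LH20 cells, beside 82.5, 46.4 and 75.8 in LHR- cells. The LH1 arrays again stood above all others, and LH20 arrays overlapped LH8 and LHR- arrays but not LHR+ arrays. Its log2 fold change was 1.94 (SE 0.35) for LH1/LHR+ and -1.38 (SE 0.35) for LH20/LHR+, both meeting the call rule. The LH1 call was lost without LHR+ replicate 2 (1.75) and with only the 6 arrays of both groups in the fit. LHR+ arrays lay above all LHR- arrays, with a log2 fold change of 1.01 (SE 0.35) that did not meet the rule, but did without LHR+ replicate 2 (1.21) and in a fit of the probe sets brighter than the median.

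Probe set 201107_s_at, the dimmest for THBS1, read 76.6, 49.7 and 84.8 in LHR+ cells, 173, 128 and 164 in LH1 cells, 107, 81.6 and 109 in LH4 cells, 44.3, 49.1 and 105 in LH8 cells, and 28.3, 38.5 and 30.7 in LH20 cells, beside 42.7, 66.5 and 46.4 in LHR- cells. Here too LH1 arrays were the highest and LH20 arrays the lowest, with no overlap with any other group. The log2 fold change was 1.15 (SE 0.30) for LH1/LHR+, which met the rule, among the alternatives run, only in a fit of the probe sets brighter than the median, and -1.07 (SE 0.30) for LH20/LHR+, which met it. The LH20 call was lost without LH20 replicate 1 (-0.98), LHR+ replicate 1 (-0.99) or LHR+ replicate 3 (-0.92), and with 16 instead of 1 added before log2 (-0.81).

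A second trio of THBS1 probe sets was highest later, at 4 or 8 h. Probe set 201110_s_at, the brightest and the one that would stand for THBS1 in a table with 1 row per gene, read 3669, 3045 and 2679 in LHR+ cells, 3558, 4943 and 4467 in LH1 cells, 6373, 5476 and 5604 in LH4 cells, 3955, 5701 and 4542 in LH8 cells, and 2834, 2386 and 2509 in LH20 cells, beside 3618, 3907 and 2718 in LHR- cells. All LH4 and LH8 arrays stood above all LHR+ arrays, while LH1 and LH20 arrays overlapped LHR+ arrays. Its log2 fold changes were 0.46, 0.90, 0.59 and -0.27 (SE 0.18) for LH1, LH4, LH8 and LH20 over LHR+. None met the rule. Without LHR+ replicate 1 the LH4 value was 1.02 and met it.

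Probe set 235086_at climbed at each time up to 8 h. It read 214, 182 and 236 in LHR+ cells, 525, 580.1 and 611 in LH1 cells, 839, 733 and 687 in LH4 cells, 982, 996 and 993 in LH8 cells, and 225, 249 and 204 in LH20 cells, beside 232, 287 and 265 in LHR- cells. LH1, LH4 and LH8 arrays did not overlap one another or any of the remaining arrays, and LH20 arrays overlapped LHR+ arrays. The log2 fold changes over LHR+ were 1.44, 1.84 and 2.24 (SE 0.13) at 1, 4 and 8 h, all meeting the rule, and 0.11 at 20 h. These 3 calls held in all 7 processing alternatives and in all 6 fits of each that left out an array.

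Probe set 201109_s_at had the same broad rise with a smaller size. It read 418, 331 and 504 in LHR+ cells, 619, 606 and 788 in LH1 cells, 778, 832 and 917 in LH4 cells, 609, 782 and 870 in LH8 cells, and 353, 249 and 363 in LH20 cells, beside 282, 330 and 314 in LHR- cells. LH1, LH4 and LH8 arrays overlapped one another and all lay above the LHR+ arrays. Only LH4/LHR+ met the rule, at 1.03 (SE 0.19), just past the 2-fold limit. The call was lost without LH4 replicate 3 (0.96), without LHR+ replicate 2 (0.87) and with every array scaled to 1 median (0.96). LH8/LHR+, at 0.86, met the rule without LH8 replicate 1 or LHR+ replicate 3, at 1.00 in both.

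The remaining THBS1 probe set, 201108_s_at, showed no such course. It read 1266, 1004 and 1616 in LHR+ cells, 983, 955 and 1602 in LH1 cells, 940.4, 1310 and 1117 in LH4 cells, 1447, 1033 and 1283 in LH8 cells, and 955, 1355 and 1030.3 in LH20 cells, beside 944, 991 and 1712 in LHR- cells. Every group overlapped every other, and the log2 fold changes over LHR+ lay between -0.21 and -0.03 (SE 0.27). It was the second brightest of the 7, with a mean intensity of 1197 against 3999 for 201110_s_at.

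**Figure D1:**
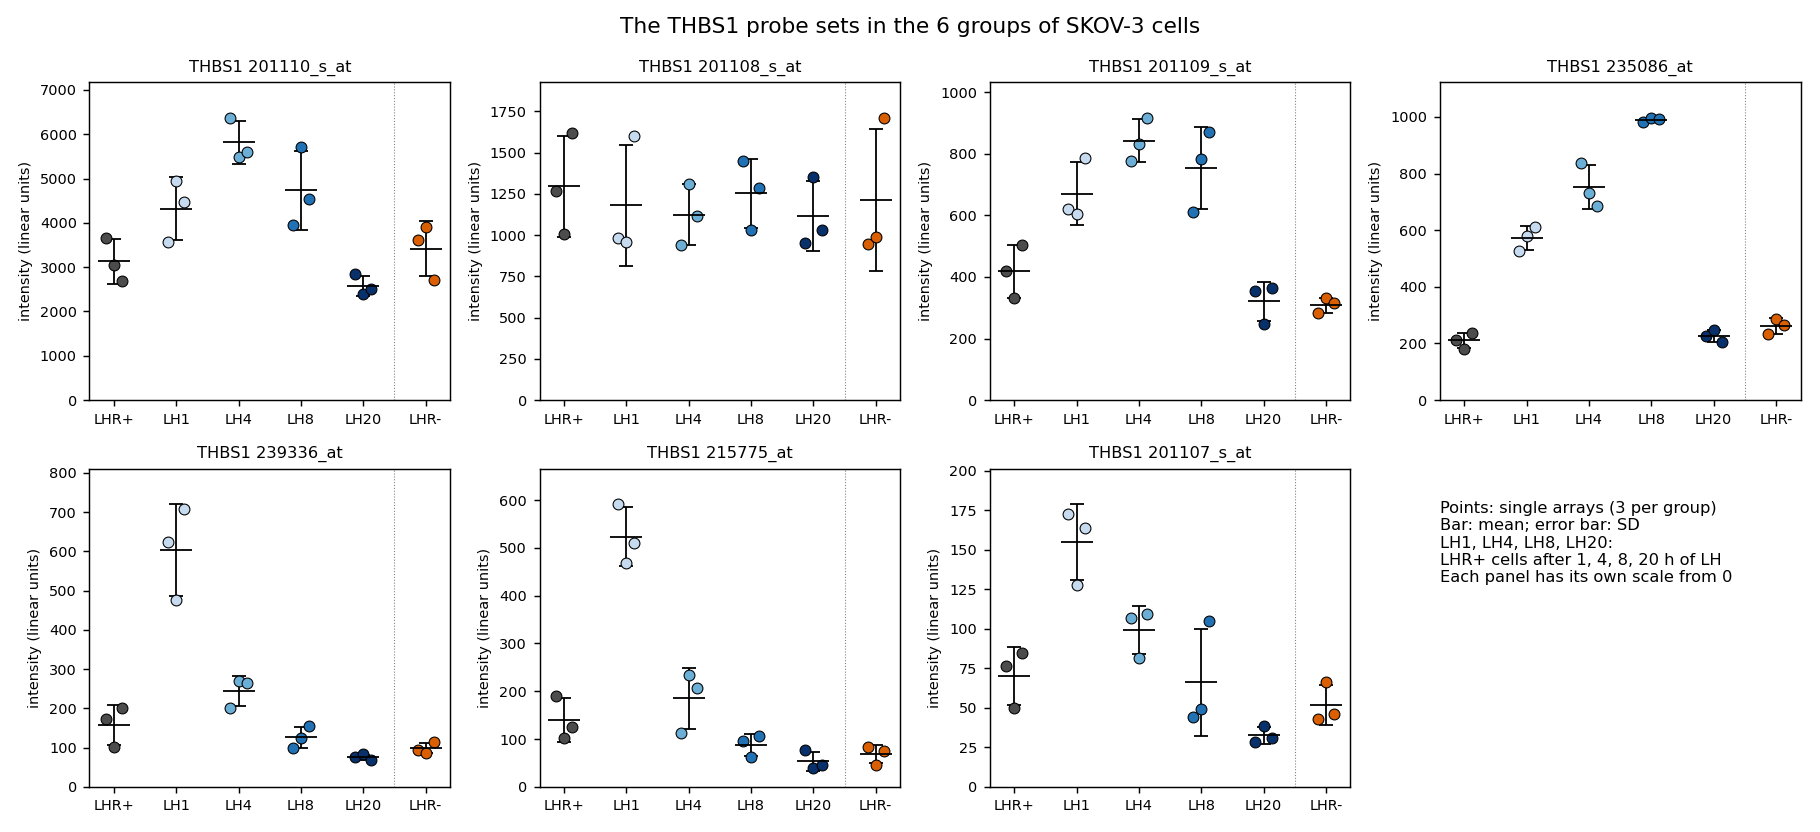
Intensity (linear units, each panel from 0) of the 7 THBS1 probe sets in LHR+ cells, after 1, 4, 8 and 20 h of LH, and in LHR- cells, with points for single arrays, bars for the mean and error bars for the SD (n = 3). Probe sets 239336_at, 215775_at and 201107_s_at are highest in LH1 cells, 201110_s_at and 201109_s_at in LH4 cells and 235086_at in LH8 cells, and 201108_s_at overlaps across all groups.

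The first trio of THBS1 probe sets correlated with one another over the 18 arrays (Pearson r 0.84 to 0.95), as did 201110_s_at, 201109_s_at and 235086_at (0.81 to 0.88). Between the trios r lay between 0.36 and 0.68, and probe set 201108_s_at had r between -0.24 and 0.12 with the other THBS1 probe sets. The trios were drawn up after the values were seen, the arrays share their groups, and no test is attached. Over its 21 pairs THBS1 had a median r of 0.51 with 1 pair below 0, whereas the 42459 same-gene pairs of 10523 genes had a median of 0.19 with 29.8% below 0. Among probe sets brighter than the median probe set, which include all 7 of THBS1, the 18681 pairs had a median of 0.40 with 18.3% below 0. Within groups, after the group means were taken off, r was lower for every THBS1 pair without 201108_s_at, at 0.45 for 239336_at with 215775_at, 0.13 for 201110_s_at with 201109_s_at and -0.25 for 201110_s_at with 239336_at.

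The sizes of their changes differed widely. At LH1/LHR+ the highest and lowest THBS1 log2 fold changes were 2.12 apart, and none of the 487 genes with at least 5 probe sets brighter than the median had a wider span, the median span being 0.41. At LH8/LHR+ the span was 2.89 and again none was wider, with a median of 0.54. At LH4/LHR+ the span was 2.03 and 2 genes were wider, at LH20/LHR+ it was 1.49 and 48 were wider, and at LHR+/LHR- it was 1.33 and 10 were wider. Differences of this kind are what the gene was chosen for, so these counts are a description. RefSeq places 2 other genes over THBS1, the long noncoding THBS1-IT1 and the protein-coding FSIP1. FSIP1 averaged 44.0 in LH20 cells and 20.4 in LHR+ cells, both under the median intensity, and met the rule (log2 fold change 1.08, SE 0.28, limma adjusted p = 0.014). The positions of the probes within THBS1 are not given in the sources used here, so that the probe sets could not be assigned to exons or transcript ends.

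**Figure D2:**
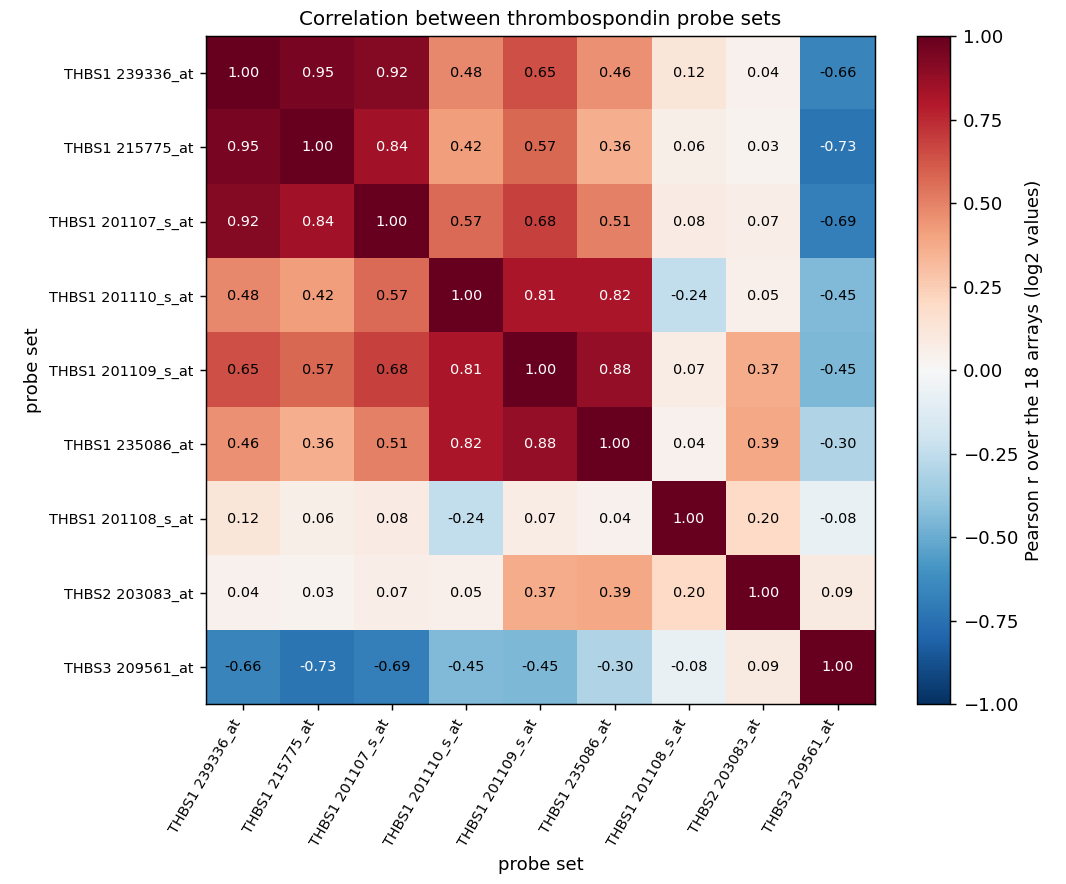
Pearson r of log2 values over the 18 arrays for each pair of the 9 thrombospondin probe sets, named on both axes. The first 3 THBS1 rows (r 0.84 to 0.95) and the next 3 (0.81 to 0.88) form separate blocks, and THBS3 has negative r with the THBS1 probe sets.

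THBS2 changed little beside THBS1. Its probe set 203083_at read 214, 180.1 and 216 in LHR+ cells, 206, 206 and 191 in LH1 cells, 151, 195 and 179.8 in LH4 cells, 238, 255 and 289 in LH8 cells, and 202, 209.9 and 198 in LH20 cells, beside 146, 177 and 155 in LHR- cells. All LH8 arrays stood above every other array. All LHR+ arrays stood above all LHR- arrays, and the remaining neighbours in the order of group means overlapped. The log2 fold change was 0.35 (SE 0.12) both for LHR+/LHR- and for LH8/LHR+, and 0.58 for LH8/LH4. None met the rule in any of the 8 comparisons.

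THBS3 rose last. Its probe set 209561_at read 371, 374 and 353 in LHR+ cells, 281, 402 and 349 in LH1 cells, 439.7, 379 and 379 in LH4 cells, 382, 475 and 489.8 in LH8 cells, and 636, 826 and 841 in LH20 cells, beside 382, 452 and 485 in LHR- cells. All LH20 arrays stood above every other array, and LHR+ arrays lay just below the LHR- arrays. THBS3 averaged 768 ± 114 in LH20 cells and 366 ± 11.6 in LHR+ cells (SD, n = 3 each). The log2 fold change was 1.06 (SE 0.16) for LH20/LHR+, which met the rule, and -0.26 for LHR+/LHR-, which did not. Without LH20 replicate 2 (0.998) or LH20 replicate 3 (0.985) the fold fell short of 2 and the call was lost. MTX1, a mitochondrial outer membrane gene that RefSeq places partly over THBS3, averaged 1672 in LH20 cells and 1341 in LHR+ cells (log2 fold change 0.33, SE 0.14, limma adjusted p = 0.14).

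**Figure D3:**
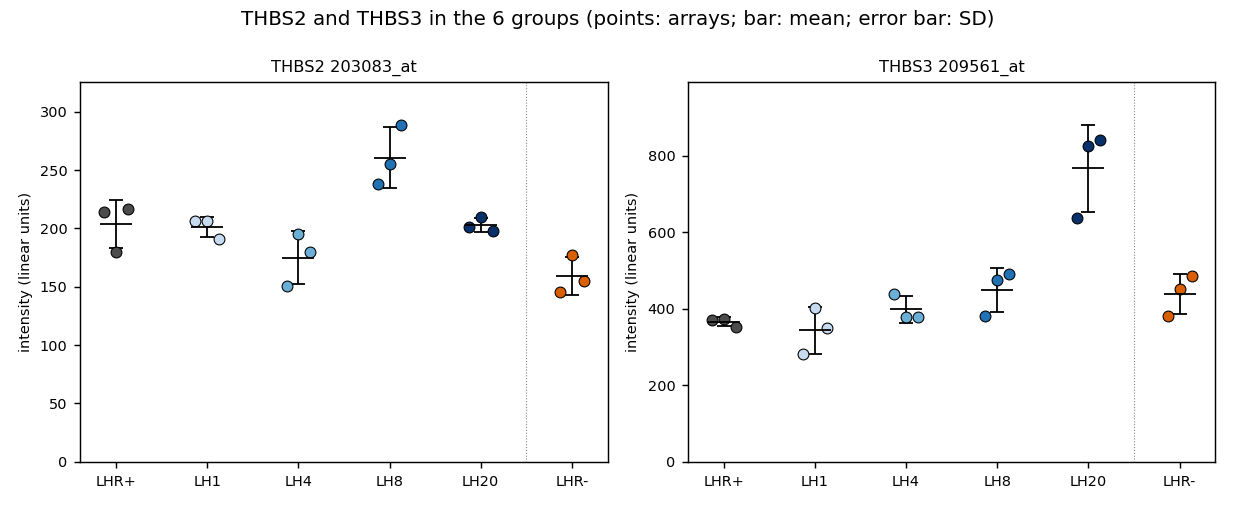
Intensity (linear units, axis from 0) of the THBS2 and THBS3 probe sets in the 6 groups, with points for single arrays, bars for the mean and error bars for the SD (n = 3). THBS2 is highest in LH8 cells (mean 261), and THBS3 in LH20 cells (mean 768), above all other arrays.

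Over the 18 arrays THBS3 had r of -0.73 with THBS1 probe set 215775_at and -0.66 with 239336_at, and the r of THBS2 with THBS3 was 0.09. The arrays again share their groups, and no test is attached.

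Counted over the 9 probe sets, none met the rule for LHR+/LHR-, where 3.36% of all 54675 probe sets did. For LH1/LHR+ 3 met it, all THBS1 and all higher in LH1 cells, against 0.481% of all probe sets. For LH4/LHR+ the count was 2, higher in LH4 cells (1.89% of all), and for LH8/LHR+ it was 1, higher in LH8 cells (1.52% of all). For LH20/LHR+ 3 met it, 2 of THBS1 lower and THBS3 higher in LH20 cells, against 7.06% of all. Along the time course 2 met the rule for LH4/LH1, both lower in LH4 cells (1.52% of all), none for LH8/LH4 (1.17% of all), and 2 for LH20/LH8, both THBS1 and lower in LH20 cells (4.27% of all). The genes were chosen from values of these arrays, by contrasts that are not recorded, so nothing is read from the shares.

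The step between 1 and 4 h showed the opposed directions within THBS1 most plainly. All 3 LH4 arrays stood above all 3 LH1 arrays for 201110_s_at and 235086_at, with log2 fold changes of 0.44 and 0.39, while all 3 stood below for 239336_at (-1.29), 215775_at (-1.56) and 201107_s_at (-0.64). Over all probe sets 9.67% had every LH4 array above every LH1 array and 11.1% had every LH4 array below. The calls for LH4/LH1 were those of 239336_at and 215775_at, and the second was lost without LH1 replicate 1 (-1.46), without LH4 replicate 1 (-1.24) and with only the 6 arrays of both groups in the fit. Between 8 and 20 h all 7 values were negative, with 235086_at at -2.13 (SE 0.13) and 201109_s_at at -1.23 (SE 0.19) meeting the rule. Probe set 201107_s_at met it too without LH20 replicate 2 (-1.03), LH8 replicate 1 (-1.14) or LH8 replicate 2 (-1.06). For LH8/LH4, 239336_at met it without LH4 replicate 1 (-1.10) or LH8 replicate 3 (-1.12), 215775_at without LH4 replicate 1 (-1.36) and in a fit of the brighter probe sets (-1.04), and 201107_s_at without LH8 replicate 3 (-1.06).

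**Figure D4:**
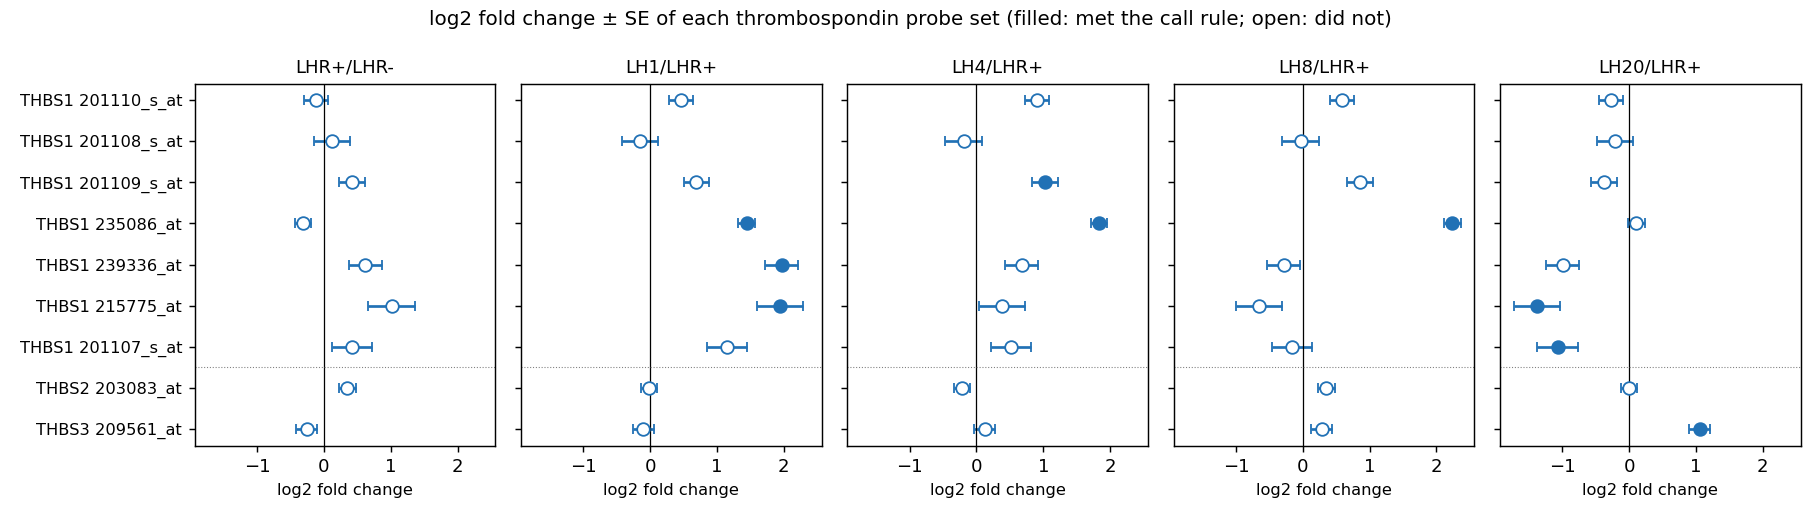
Log2 fold change with its SE (x axis) of each thrombospondin probe set (rows) for LHR+/LHR- and for LH1, LH4, LH8 and LH20 over LHR+, with filled points for values that met the call rule and open points for the rest. At LH1/LHR+ the THBS1 values run between -0.15 and 1.97, and at LH8/LHR+ between -0.65 and 2.24.

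By likeness over the 18 arrays, the genes closest to the brightest THBS1 probe set were PGM2 (r 0.92), ANKRD13C (0.90), ATG3 (0.90), DDX60L (0.90) and POLR1G (0.90), among 22597 probe sets of other genes brighter than the median. Through their own brightest probe sets PGM2 (0.54), ANKRD13C (0.33), ATG3 (0.40) and DDX60L (0.49) had lower r, and POLR1G was read by its brightest. Those closest to THBS2 were SEPTIN8 (0.85), UNC5CL (0.81), INPP4B (0.81), NAV1 (0.79, and 0.62 by its brightest) and PDK1 (0.79). Those closest to THBS3 were TPGS2 (0.95), the lysosomal peptidase TPP1 (0.95), HBP1 (0.94), the mitochondrial acyl-CoA dehydrogenase ACADVL (0.94) and CUL7 (0.94). Their log2 fold changes for LH20/LHR+ lay between 0.51 and 1.68. As they were picked by r with THBS3 over the same arrays, this shared rise came with the choice. TPGS2 was near THBS3 through probe set 213616_at, while its brightest had r of -0.59. Chosen after their values were seen, the genes closest to the early THBS1 probe set 239336_at included MYC (0.94), which encodes a growth-promoting transcription factor, and DUSP5 (0.94), which encodes a phosphatase of MAP kinases. Of the 35 nearest neighbours of the 7 THBS1 probe sets, 13 (37.1%) were their own gene's brightest probe set, against 52.7% of the 22604 candidates. MYL12A, nearest to both 239336_at and 215775_at, had r of 0.95 through its probe set 1555978_s_at and -0.01 and 0.05 with them through its brightest, 201319_at.

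Partner genes of the thrombospondins were taken from 7 lists, with 94 genes measured by a probe set of their own and each gene read by its brightest. Below, a partner gene is said to rise or fall only where it met the call rule, so smaller changes are left out. Of these 94, 11 met the rule for LHR+/LHR- (2 higher and 9 lower in LHR+ cells), against 4.20% of all genes. For LH1/LHR+ the count was 9, all higher in LH1 cells (0.319% of all genes), for LH4/LHR+ 8 higher and 1 lower in LH4 cells (1.97% of all), for LH8/LHR+ 5 higher and 1 lower in LH8 cells (1.44% of all), and for LH20/LHR+ 17 higher and 7 lower in LH20 cells (7.40% of all). The median log2 fold change of the 94 was -0.26 for LHR+/LHR- and lay between 0.04 and 0.19 in the 4 comparisons with LH. The lists were drawn up with earlier results of these data known. Of the 9 at LH1/LHR+, 6 came from the list of serum response and AP-1 genes. Nothing is therefore read from the counts beside the shares of all genes.

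Neither of the other 2 thrombospondins met the rule. THBS4 averaged 129 ± 10.7 in LH20 cells and 191 ± 26.9 in LHR+ cells (SD, n = 3 each), with a log2 fold change of -0.56 (SE 0.16, limma adjusted p = 0.024) that fell short of 2-fold. COMP was dim in every group, with means between 7.01 and 15.3.

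Among 18 receptors and binding partners, each read by its brightest probe set, 1 rose and 1 fell in LHR+ against LHR- cells. None met the rule at 1, 4 or 8 h of LH, and at 20 h 3 rose and 1 fell. The paper lists ITGB1 as higher at 1 h of LH and names no probe set. The brightest ITGB1 probe set had a log2 fold change of -0.02 here. Values of its other probe sets are not given, so both readings need not come from the same probe set. LRP1, the endocytic receptor that clears THBS1 and THBS2, averaged 169.5 ± 23.0 in LHR+ cells and 748 ± 122 in LHR- cells, and its LHR+/LHR- log2 fold change was -2.13 (SE 0.19, limma adjusted p = 1.4e-05). At 20 h LRP1 averaged 717 ± 114 in LH20 cells against the same LHR+ level (2.07, limma adjusted p = 6.7e-06). CD36, the receptor for the type 1 repeats, read 61.1 to 67.4 in LH20 cells and 5.37 to 34.2 in LHR+ cells (limma adjusted p = 0.029). The LHR+ level lay under the array medians, so the size of the CD36 change depended on the offset, with log2 fold changes of 2.07 with 1 added and 1.31 with 16 added. CD47, the receptor for the C-terminal domain, was bright throughout and averaged 8551 ± 948 in LH20 cells and 5805 ± 515 in LHR+ cells, with a log2 fold change of 0.56 (limma adjusted p = 0.0015) that fell short of 2-fold. The basement membrane proteoglycan HSPG2 rose by 1.14 at LH20/LHR+, the integrin subunit ITGB3 fell by 1.97, and the lipoprotein receptor family member VLDLR rose by 1.41 at LHR+/LHR-. Fibroblast markers other than PDGFRB (187 in LH20 and 200.1 in LHR+ cells) had higher means in LH20 than in LHR+ cells. LUM averaged 223 in LH20 and 21.0 in LHR+ cells, and DCN 163 in LH20 and 16.8 in LHR+ cells. COL3A1 and THY1 stayed under the median intensity in both groups. COL1A1, at 15744 in LH20 and 12626 in LHR+ cells, carried most of the summed level. In LH20 cells 5 of 7 markers lay above the median, against 2 in LHR+ cells. The summed level was 15898 to 17508 in LH20 cells, and its part in the rises of LRP1 and HSPG2, or of HMCN1 and SPP1 below, was not tested.

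Of 11 genes for TGF-beta ligands, latency and activation, ITGB8 alone met the rule. This integrin subunit, part of a receptor that activates latent TGF-beta, averaged 1556 ± 199 in LH4, 1548 ± 37.6 in LH8 and 3076 ± 264 in LH20 cells, against 483 ± 47.7 in LHR+ cells, with log2 fold changes of 1.68, 1.68 and 2.67. Of 11 genes known as TGF-beta targets, LH for 1, 4 or 8 h raised 2 each time and LH for 20 h raised 3, and 1 fell in LHR+ against LHR- cells. ID3, an inhibitor of basic helix-loop-helix factors, rose at all 4 times (1.09, 2.65, 1.66 and 3.41), ID1 at 8 h (1.27) and 20 h (2.24), and the inhibitory SMAD6 at 20 h (1.21). CCN2, a matricellular protein with a type 1 repeat, averaged 5962 ± 292 in LH1 and 2808 ± 251 in LH4 cells, against 651 ± 40.5 in LHR+ cells, with log2 fold changes of 3.19 and 2.11. CCN2 was also lower in LHR+ cells than in LHR- cells, with a log2 fold change of -1.57.

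Of 28 proteins with type 1 repeats, the domain that THBS1 and THBS2 carry, 1 rose and 4 fell in LHR+ against LHR- cells, 2 rose at 1 h, 2 at 4 h and 1 at 8 h, and 7 rose and 4 fell at 20 h. Apart from CCN2, the fallers at LHR+/LHR- were ADAMTS6 (-1.29), CCN3 (-1.13) and the basement membrane protein HMCN1 (-1.51), and the protease ADAMTS9 rose (1.29). The related matricellular protein CCN1 averaged 8892 ± 1392 in LH1 cells and 3106 ± 335 in LHR+ cells, with a log2 fold change of 1.51 (SE 0.14, limma adjusted p = 8.7e-05). At 20 h CCN1 averaged 744 ± 84.2 in LH20 cells, below LHR+ (-2.06, limma adjusted p = 4.3e-07), as were ADAMTS1 (-1.58), ADAMTS6 (-2.27) and the netrin receptor UNC5B, which averaged 12.4 ± 11.3 in LH20 cells and 99.7 ± 46.8 in LHR+ cells. PAPLN (2.09), ADAMTS9 (1.28), CCN3 (1.21), CCN5 (1.93), HMCN1 (1.10), the Wnt agonist RSPO3 and SEMA5B rose at LH20/LHR+, and ADAMTS9 also rose at 8 h (1.02). RSPO3 averaged 13.9 in LH4 and 25.3 in LH20 cells, against 1.14 in LHR+ cells, and SEMA5B averaged 40.0 in LH20 and 6.67 in LHR+ cells, all under the median intensity. The sizes of these dim changes depended on the offset: with 1 and 16 added, LH20/LHR+ was -3.175 and -2.001 for UNC5B, 3.66 and 1.27 for RSPO3 and 2.69 and 1.32 for SEMA5B. With 16 added, RSPO3 at LH4/LHR+ (0.77, against 2.74) and HMCN1 at LH20/LHR+ (0.93) no longer met the rule.

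Of 16 matricellular and angiogenesis partners, 4 fell in LHR+ against LHR- cells, none met the rule at 1, 4 or 8 h, and at 20 h 1 rose and 1 fell. The 4 were periostin (POSTN), which averaged 5.84 ± 2.73 in LHR+ and 805 ± 41.5 in LHR- cells (log2 fold change -6.96, or -5.24 with 16 added), tenascin C (TNC, log2 fold change -2.38), SPARC (-1.47) and the gelatinase MMP2 (-1.23). Of the fibroblast markers LUM, COL1A1, DCN and COL3A1 were lower in LHR+ cells too, while PDGFRB averaged 200.1 in LHR+ and 96.8 in LHR- cells, and the part of such cells or RNA in these values was not tested. At 20 h the secreted phosphoprotein SPP1 rose (1.33) and TNC fell again (-1.12).

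Of 10 serum response and AP-1 genes, 6 rose at 1 h, the time at which 239336_at, 215775_at and 201107_s_at of THBS1 were highest. Their log2 fold changes for LH1/LHR+ were 5.71 for FOSB, 3.72 for FOS, 2.75 for EGR1, 2.12 for NR4A1, 1.97 for ATF3 and 1.70 for MYC, all genes for rapidly induced transcription factors. FOS, FOSB and NR4A1 lay under the median intensity in LHR+ cells, with means of 5.76, 9.61 and 32.8, and with 16 added their values were 2.06, 4.28 and 1.73. EGR1 averaged 9631 ± 1850 in LH1 cells and 1410 ± 38.8 in LHR+ cells, and fell below LHR+ at 4, 8 and 20 h (-1.89, -2.22 and -1.45). FOSB met the rule, higher than LHR+, at all later times (4.16, 2.01 and 2.53, or 2.81, 1.03 and 1.42 with 16 added). NR4A1 met it at 4 h (1.78) and 20 h (1.16, or 0.90 and no longer called with 16 added), and ATF3 at 4 h (1.03). Short of the rule, ATF3 read 1160 to 1319 in LH20 cells, above all LHR+ arrays (798 to 931). NR4A1 likewise read 36.4 to 67.6 in LH8 cells, above all LHR+ arrays (29.7 to 34.9). CREM, a cAMP-responsive modulator, met the rule at 4 h alone (1.39). Its LH8 arrays (790 to 903) and LH20 arrays (565 to 686) also lay above all LHR+ arrays (473 to 512), short of the rule.

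**Figure D5:**
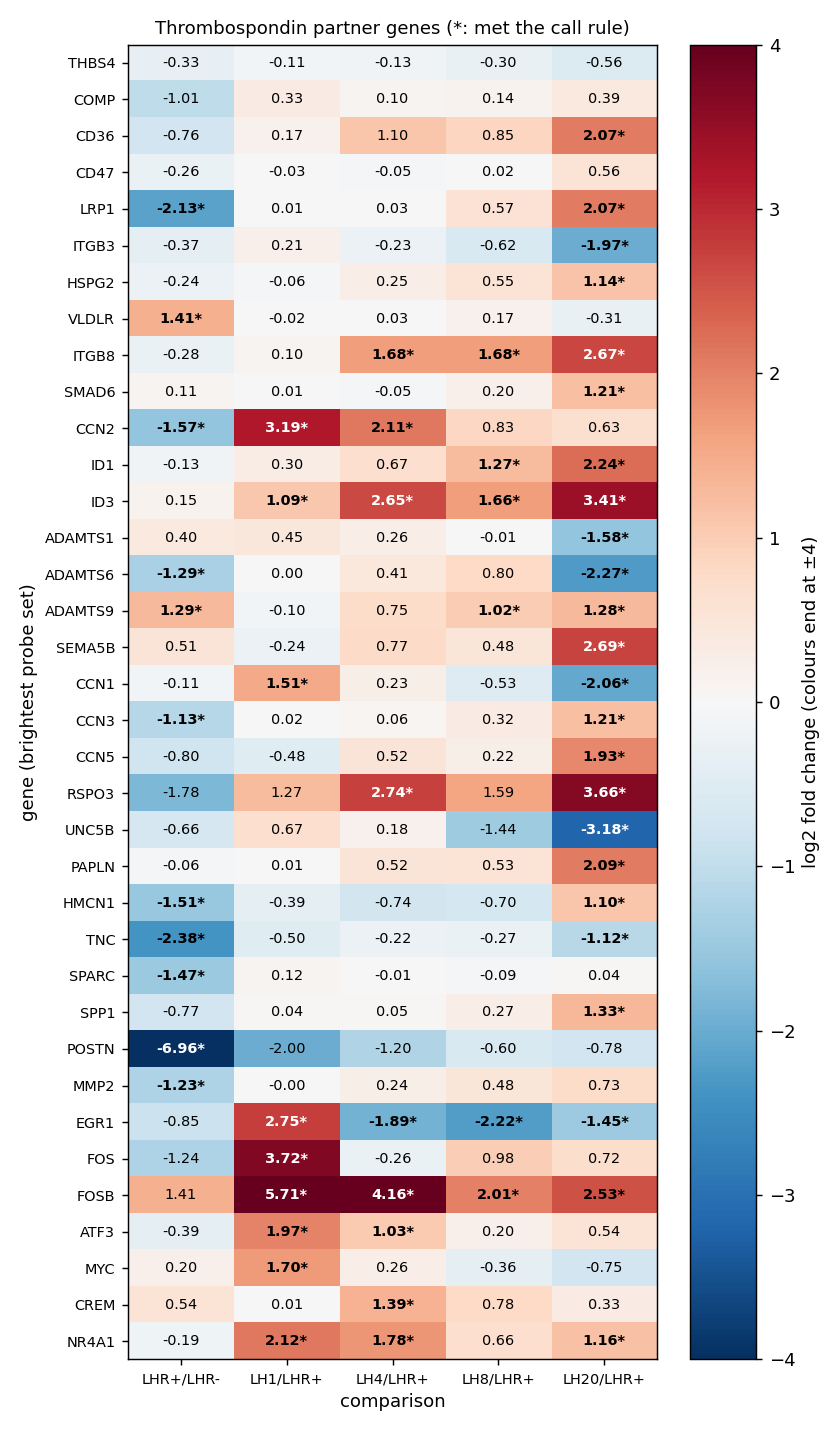
Log2 fold change of 36 partner genes (rows, by brightest probe set) for LHR+/LHR- and for LH1, LH4, LH8 and LH20 over LHR+ (columns), with colour from blue (lower in the first-named group) to red (higher) and an asterisk where the call rule was met. CCN2 (3.19) and EGR1 (2.75) are high at LH1/LHR+ and LRP1 (-2.13) is low at LHR+/LHR-, while the depth of colour of genes dim in LHR+ cells, such as FOS, FOSB and POSTN, depends on the 1 added before log2.

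THBS1 is abundant in platelets, and markers of platelets and megakaryocytes were read for that reason. The 5 markers summed to between 83.4 and 99.2 in LH1 cells and between 66.6 and 96.4 in LHR+ cells, with none above the median intensity in either group. At 20 h the sum was 153 to 243, with 2 of 5 above the median. ITGA2B, at 114 in LH20 and 39.7 in LHR+ cells, was the largest part of it. GP1BA (52.8 in LH20 cells) lay just over the median, and PF4 (25.6) and PPBP (6.07) under it. GP9 was lower in LH20 (7.26) than in LHR+ cells (9.69). LH20 was the group in which 239336_at, 215775_at and 201107_s_at of THBS1 were lowest and THBS3 and CD36 were highest. The part of such RNA in these values was not tested.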

How the data were processed

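Per the labels, total RNA of the 18 SKOV-3 cultures was amplified with the NuGEN Ovation system, biotinylated and hybridised to Affymetrix U133 Plus 2.0 arrays. The authors deposited 1 probe set intensity per array on a linear scale, summarised by PLIER per the submitters' processing notes and by RMA per the study's methods, so the summary used and its scaling are not settled. No genome build of the annotation is given in the sources used here. The values were analysed as log2(intensity + 1) with no further scaling. A 6-group model was fitted to all 54675 probe sets with limma 3.58.1 in R 4.3.3 (lmFit, eBayes), p-values being adjusted by Benjamini-Hochberg over all probe sets of a comparison. The 4 LH comparisons share the LHR+ arrays. The thresholds of the call rule follow the study's methods. With 3 arrays against 3, an exact permutation test cannot give a two-sided p below 0.1. For arrays the number of arrays limits the precision.

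GEO's platform annotation gave 41097 probe sets 1 symbol, 1801 several and 11777 none, with symbols updated through the GRCh38.p14 gene table. A partner gene was read by its brightest probe set. Genes were named where they are THBS1, THBS2 or THBS3, a called partner, THBS4, COMP, CD36, CD47, LHCGR or 1 of the 5 genes nearest in Pearson r to a member's brightest probe set. Neighbouring genes, MYC, DUSP5 and MYL12A were added after their values were seen. Listed genes with no matched probe set of their own were not analysed here. The members, lists and motifs were chosen with earlier results of these data known. The alternatives were another offset, equal medians, quantile normalization, a filter on dim probe sets, 1 or any probe set per gene, the mean or median of the THBS1 probe sets, no fold threshold, only the arrays compared, a replicate block, unmoderated variance and leaving out each array. The fitting code was tested on simulated data. Promoter windows are RefSeq's, and plots used Python 3.11.15 with matplotlib 3.10.9.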

Additional observations from a re-analysis of the deposited data

Results flagged for a closer look

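The 3 THBS1 probe sets that were highest after 1 h of LH had every LH1 array above and every LH20 array below all LHR+ arrays. The log2 difference of LH20 against LH1 was -2.96 for 239336_at, -3.32 for 215775_at and -2.22 for 201107_s_at, and probe set 239336_at also had LH4 arrays above and LH20 arrays below all LHR+ arrays, with LH20 against LH4 at -1.67. These differences between times were not tested, because the gene was chosen from the same values.

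Among the partner genes, CCN1 met the call rule in opposite directions at 1 and 20 h of LH, with a log2 difference of LH20 against LH1 of -3.57 (limma adjusted p = 6.7e-09), lower in all 3 LH20 arrays. EGR1 did so between 1 h and each later time, with log2 differences of -4.64 for LH4 against LH1 (limma adjusted p = 5.4e-10), -4.97 for LH8 against LH1 (limma adjusted p = 2.2e-10) and -4.21 for LH20 against LH1 (limma adjusted p = 1.6e-09). A pair of times was listed only where the calls over LHR+ were opposite and the difference itself met the rule. The p-values of CCN1 and EGR1 here are therefore a description and no independent support.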

How the results depend on the processing

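The value that stands for THBS1 changed its calls. Its brightest probe set gave log2 fold changes of 0.46, 0.90 and 0.59 for LH1, LH4 and LH8 over LHR+, none of them meeting the call rule. The mean of the 7 probe sets on each array gave 1.07, 0.74 and 0.36, of which LH1 alone met it. The median on each array gave 1.59, 1.80 and 1.83, all meeting it. The middle probe set changed between groups, being 235086_at in LHR+ replicate 1 and 201109_s_at in LH8 replicate 1. These medians therefore compare different probe sets. The median of the 7 separate fold changes was 1.15, 0.68 and -0.03. The mean and the median on each array were added after the data were seen. Dropping the 2-fold limit raised the count of called partner genes to 30 for LHR+/LHR- (against 11), 14 for LH4/LHR+ (9), 17 for LH8/LHR+ (6) and 47 for LH20/LHR+ (24). With a gene counted when any of its probe sets was called, the count was 14 for LHR+/LHR- and 10 for LH1/LHR+ (against 9). It was 12 for LH4/LHR+, 8 for LH8/LHR+ and 30 for LH20/LHR+. Of 538 values under alternatives that left no array of the compared groups out, all for the thrombospondins, 523 stayed on the same side of the rule, 5 lost the call and 10 gained it. No called value changed sign.

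Leaving out 1 array at a time, 201110_s_at of THBS1 ranged between -0.28 and -0.01 for LHR+/LHR-, 0.36 and 0.60 for LH1/LHR+, 0.80 and 1.02 for LH4/LHR+, 0.45 and 0.71 for LH8/LHR+, and -0.38 and -0.15 for LH20/LHR+. THBS2 ranged between 0.29 and 0.44, -0.10 and 0.03, -0.31 and -0.12, 0.27 and 0.42, and -0.08 and 0.05 in the same comparisons, and THBS3 between -0.36 and -0.18, -0.22 and 0.03, 0.05 and 0.16, 0.22 and 0.40, and 0.99 and 1.19. The partner counts ranged between 11 and 13, 8 and 9, 7 and 9, 6 and 6, and 22 and 27.

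Same-numbered arrays of different groups had a median correlation of 0.03 in their deviations (13 of 45 over 0.1), against -0.02 for different numbers (11 of 90 over 0.1). As not every same-numbered pair was over 0.1, the numbers were not taken as pairs in the main fit. That limit cannot exclude some pairing, since the share over 0.1 was higher among same numbers. With the replicate number as a block, THBS1 probe set 215775_at met the rule for LHR+/LHR- at the same 1.01, no other member call changed, and the partner counts were 11, 9, 8, 6 and 24. With 3 arrays a group the spread of each is poorly known, and dim probe sets near the array median carry the least signal over background.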
